A study of Mus musculus with 4 samples.

Results

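The EGF receptor family and its ligands were taken as 10 genes: the receptors Egfr, Erbb2 and Erbb3, the ligands Hbegf, Areg, Ereg, Nrg1, Tgfa and Btc, and Errfi1, an inhibitor that the receptors induce. Members were the non-control probes whose gene name in the scanner files, old or current, was one of these symbols. This gave 23 of 61307 probes, and all 10 genes were among the 24658 genes tested, of which 7735 were noncoding transcripts of the NONCODE collection and 16923 other genes. RNA came from C3H10T1/2 cells, a mouse embryo fibroblast line, and each sample was hybridised to its own 1-colour Agilent array. The DEM group (n = 2) held transformed cells exposed to 0.25 mM diethyl maleate, an electrophile that depletes glutathione, and the untreated group (n = 2) held transformed cells without it. Cells of both groups had been transformed in culture, first with 2.5 µg/ml of the carcinogen 3-methylcholanthrene (3MC) for 2 days. They then received the tumour promoter TPA, a phorbol ester, at 100 ng/ml for 2 weeks, and were kept in normal medium for 4 weeks after TPA was removed. The length of the DEM exposure, any vehicle, whether the RNA came from 1 focus or many, and whether the 2 samples of a group were separate cultures are not given in the sources used here. The p-values therefore take in only how these 4 samples vary, and that variation may be technical.

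Ligands of this family are made as membrane-bound precursors and are cut free by surface proteases, mainly of the ADAM family. They bind receptor tyrosine kinases that work in pairs. EGFR binds Areg, Tgfa, Hbegf, Ereg and Btc, whereas ERBB3 binds neuregulins, has little kinase activity of its own and signals with ERBB2, which has no known ligand. Active receptors feed the RAS-MAPK and PI3K pathways, and fibroblasts express Egfr and respond to its ligands. Errfi1 encodes MIG6, which binds the kinase domain of active EGFR and ERBB2 and shuts them off.

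Levels below are log2 processed signal minus the 75th percentile of all non-control spots on the same array, so a level of 0 is that percentile. They compare 1 probe between arrays, not one gene with another. Changes are DEM minus untreated on that log2 scale, from a limma fit with p-values adjusted by Benjamini-Hochberg over all genes, and a gene passed at an adjusted p under 0.05. The 75th percentile itself was 449.9 and 412 units of signal in DEM cells, against 701 and 747 in untreated cells, and 49.2% and 47.8% of spots in DEM cells, against 52.3% and 52.7% in untreated cells, were well above background. The arrays of a group correlated at 0.984 (DEM) and 0.987 (untreated), and arrays of different groups at 0.964 to 0.968. Per the file headers, the DEM arrays lay in slide row 2, columns 1 and 2, and the untreated arrays in row 1, columns 3 and 4. Slide position and group therefore cannot be told apart. The median change over all genes was 0.16, and changes are also given relative to it.

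Of the 10 genes, Areg, Ereg and Hbegf rose with DEM, Egfr, Nrg1 and Errfi1 fell, and Erbb2, Erbb3, Tgfa and Btc did not pass the test. Thus 6 of 10 passed, where 27.2% of all genes did. In the 2 directions, 3 rose where 15.5% of all genes rose, and 3 fell where 11.8% fell. Among the 16923 genes outside NONCODE, 31.3% passed, 16.6% rising and 14.7% falling. The groups did not overlap for 7 of the 10, nor for 68.5% of all genes. Fitted one by one, 18 of the 23 probes were tested: 4 rose, where 14.6% of all probes did, and 7 fell, where 12.2% did. The median change of the 10 genes was 0.22, beside 0.16 for all genes. Without untreated replicate 1, as without untreated replicate 2, Areg was the only one of these 6 genes to pass. When the arrays were scaled to their spike-in RNA instead, Nrg1 alone passed. Relative to the spike-in signal, in log2 units, the 75th percentile lay at -2.79 and -3.70 on the DEM arrays, against -2.76 and -3.41 on the untreated arrays.

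**Figure D1:**
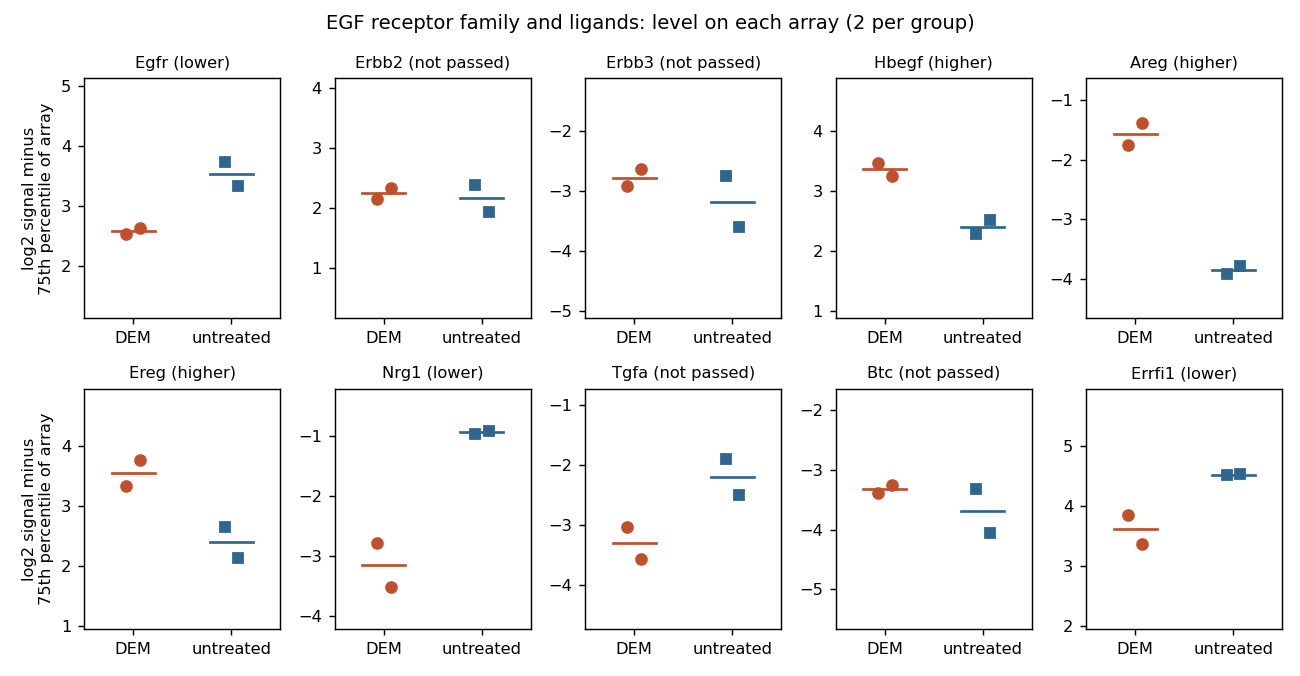
Level of each of the 10 genes on each array (log2 scale, relative to the array's own 75th percentile), with the 2 DEM arrays left of the 2 untreated arrays in each panel. Lines mark the group means, and the panels span the same height but not the same values. Areg shows the widest gap upwards, with -1.75 and -1.39 in DEM cells against -3.91 and -3.77 in untreated cells, and Nrg1 the widest gap downwards.

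Among the receptors, Egfr, which binds most of the ligands measured here, was at 2.53 and 2.63 in DEM cells, against 3.73 and 3.35 in untreated cells. Both DEM arrays lay below both untreated arrays. The change was -0.95 ± 0.20 (SE), a 1.94-fold lower level with an adjusted p of 0.0186, or -1.11 relative to the median of all genes. Before scaling, the signal of this probe was 2606 and 2562 in DEM cells and 9304 and 7597 in untreated cells. The array carried 4 Egfr probes that share no run of more than 6 bases, and all 4 fell. They are printed here because each is a separate sequence of the receptor's transcripts (the differences in size between them were not tested):
Egfr, brightest probe: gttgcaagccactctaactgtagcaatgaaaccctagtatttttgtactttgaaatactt
Egfr, a probe of the same RefSeq transcript: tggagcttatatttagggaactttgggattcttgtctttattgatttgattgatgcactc
Egfr, a probe of the other listed transcript: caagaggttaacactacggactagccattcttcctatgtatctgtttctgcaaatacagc
Egfr, a probe listed for both transcripts: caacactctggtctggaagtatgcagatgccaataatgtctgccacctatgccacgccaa
When each probe was fitted on its own, with p-values adjusted over 31771 probes, the changes in the order printed were -0.95, -1.53, -1.01 and -1.05. Their adjusted p-values were 0.0184, 0.00975, 0.0123 and 0.0132.

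Erbb2, the receptor without a known ligand, was at 2.15 and 2.34 in DEM cells, against 2.39 and 1.93 in untreated cells, so the groups overlapped. Its change of 0.09 ± 0.22 had a 95% interval of -0.45 to 0.62 and an adjusted p of 0.796. A dimmer Erbb2 probe was at -3.19 on both DEM arrays, against -2.31 and -2.34 on the untreated arrays. Its change was -0.86 ± 0.25, with an adjusted p of 0.0513 over all probes. The groups did not overlap at this probe, and the difference between both probes was not tested.

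Erbb3, the kinase-impaired neuregulin receptor, had 5 probes. The 4 probes listed for its RefSeq mRNA were not well above background on any array. The fifth, listed for a predicted transcript and named Erbb3 in the scanner files, gave -2.90 and -2.63 in DEM cells, against -2.74 and -3.60 in untreated cells. The groups overlapped, and the change of 0.40 ± 0.36 did not pass (95% interval -0.48 to 1.28, adjusted p 0.446). The Erbb3 value thus rests on that probe alone. It is shown with 2 of the mRNA probes, whose shared 40 bases are in capitals:
Erbb3, predicted transcript, measured: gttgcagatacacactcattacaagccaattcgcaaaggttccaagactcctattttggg
Erbb3, mRNA, at background: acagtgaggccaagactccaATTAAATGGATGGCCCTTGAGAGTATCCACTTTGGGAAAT
Erbb3, mRNA, at background: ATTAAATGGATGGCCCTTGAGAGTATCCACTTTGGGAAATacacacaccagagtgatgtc

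Areg, encoding amphiregulin, an EGFR ligand, had the largest rise of the 10 genes. Its only probe was at -1.75 and -1.39 in DEM cells, against -3.91 and -3.77 in untreated cells. Both DEM arrays lay far above both untreated arrays. The level was 4.82-fold higher with DEM (change 2.27 ± 0.27, adjusted p 0.00382), or 2.11 relative to the median of all genes. Its signal before scaling was 134 and 158 in DEM cells, against 46.7 and 54.9 in untreated cells, so it was dim on all 4 arrays but well above background on each. With normexp background correction the change was 1.44, still past the threshold. Areg was measured by this sequence alone:
Areg: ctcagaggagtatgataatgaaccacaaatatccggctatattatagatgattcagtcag

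Ereg, encoding epiregulin, which binds EGFR and ERBB4, was at 3.33 and 3.76 in DEM cells, against 2.65 and 2.14 in untreated cells. Its level was 2.22-fold higher (change 1.15 ± 0.25, adjusted p 0.0223), with no overlap of the groups. A second, dimmer probe rose as well, at -0.75 and -0.97 in DEM cells, against -1.59 and -1.80 in untreated cells. Its change was 0.83 ± 0.23, with an adjusted p of 0.0425 over all probes. The 2 separate sequences behind these values are:
Ereg, brightest probe: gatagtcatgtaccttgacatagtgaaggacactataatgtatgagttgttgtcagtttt
Ereg, second probe: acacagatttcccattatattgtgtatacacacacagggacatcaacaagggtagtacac

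Hbegf, encoding heparin-binding EGF-like growth factor, was at 3.48 and 3.25 in DEM cells, against 2.29 and 2.52 in untreated cells. The groups did not overlap on this scale, and the level was 1.95-fold higher (change 0.96 ± 0.19, adjusted p 0.0153; 0.80 relative to the median of all genes). Before scaling the groups did overlap, with a signal of 5014 and 3937 in DEM cells and 3430 and 4285 in untreated cells. The rise of Hbegf is thus one relative to the other probes of each array. For the brightest Ereg probe the unscaled signals did not overlap but came close, with 4519 and 5607 in DEM cells, against 4416 and 3291 in untreated cells. Those of the second Ereg probe did overlap, with 268 and 210.3 in DEM cells, against 233 and 215 in untreated cells.

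Nrg1, encoding neuregulin 1, a ligand of ERBB3 and ERBB4, had the largest fall. Its brightest probe was at -2.78 and -3.52 in DEM cells, against -0.95 and -0.90 in untreated cells. The level was 4.67-fold lower (change -2.22 ± 0.31, adjusted p 0.00582), and -1.31 with normexp background correction, which also passed. Nrg1 has many transcripts, and its 3 probes did not give one size. The second probe was at -3.90 and -5.04 in DEM cells, against -1.71 and -1.70 in untreated cells, a change of -2.76 with an adjusted p of 0.00756. It was not well above background on DEM array 2. The third was at -3.28 and -3.75 in DEM cells, against -2.81 and -2.65 in untreated cells, a change of -0.79 ± 0.30 that did not pass (adjusted p 0.104). All 3 are listed for 1 RefSeq transcript, and the differences between them were not tested:
Nrg1, brightest probe: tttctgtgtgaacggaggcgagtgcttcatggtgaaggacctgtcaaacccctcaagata
Nrg1, second probe: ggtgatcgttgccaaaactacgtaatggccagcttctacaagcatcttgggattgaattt
Nrg1, remaining probe: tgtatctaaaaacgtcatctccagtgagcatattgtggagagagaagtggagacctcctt

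**Figure D2:**
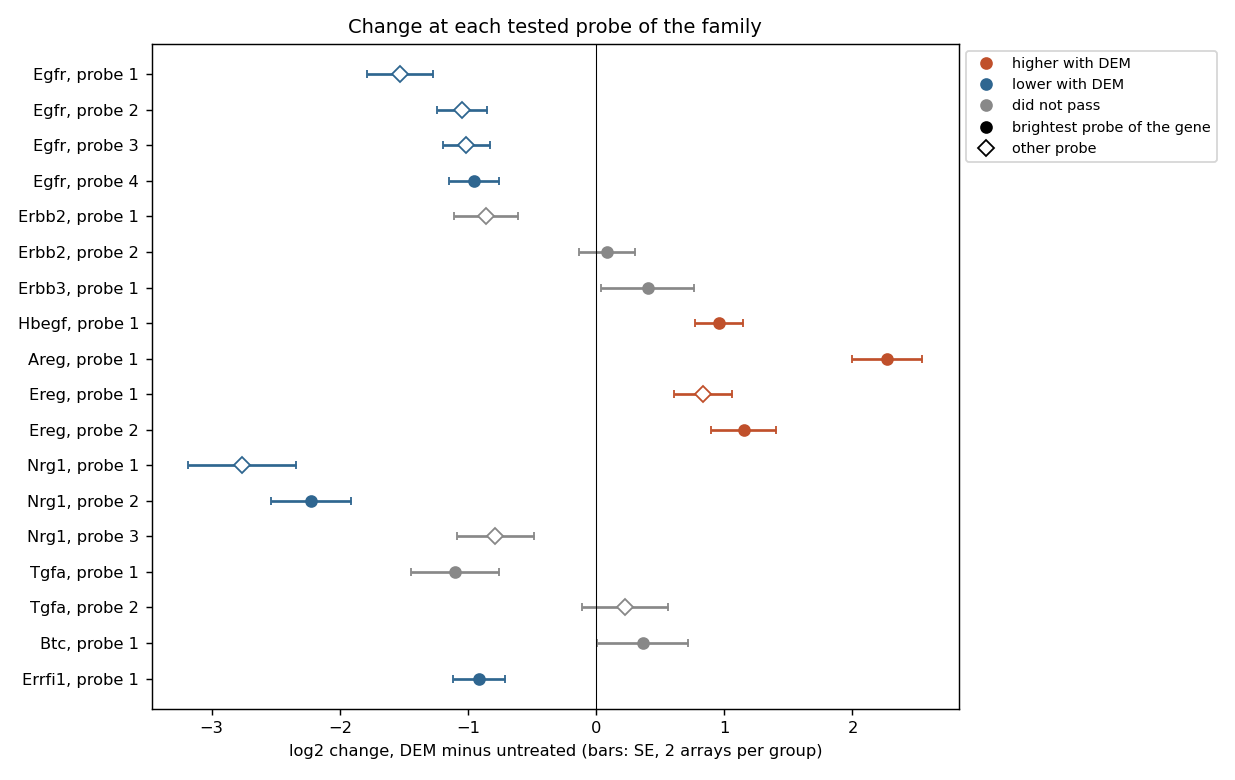
Log2 change, DEM minus untreated, at each of the 18 family probes tested on its own, with its standard error (2 arrays per group). Filled circles are the brightest probe of a gene, and open diamonds are its other probes. The 4 Egfr probes and both Ereg probes moved together within their gene, whereas the probes of Nrg1 ran between -2.76 and -0.79 and those of Tgfa lay on either side of 0.

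Tgfa, encoding transforming growth factor alpha, an EGFR ligand, was at -3.03 and -3.57 in DEM cells, against -1.89 and -2.50 in untreated cells. The groups did not overlap, but the change of -1.10 ± 0.34 missed the threshold (95% interval -1.94 to -0.27, adjusted p 0.0593). It passed under 4 of 16 alternative settings. A dimmer Tgfa probe was at -4.23 and -4.08 in DEM cells, against -4.22 and -4.54 in untreated cells, a change of 0.23 ± 0.34. Btc, encoding betacellulin, was at -3.39 and -3.26 in DEM cells, against -3.32 and -4.06 in untreated cells. The groups overlapped, and the change of 0.36 ± 0.35 did not pass (95% interval -0.49 to 1.22, adjusted p 0.477). The other Btc probe was not well above background on any array.

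Errfi1, the receptor inhibitor, was at 3.86 and 3.37 in DEM cells, against 4.52 and 4.53 in untreated cells. Both DEM arrays lay below both untreated arrays, and the level was 1.88-fold lower (change -0.91 ± 0.21, adjusted p 0.0241; -1.07 relative to the median of all genes). The gene has 1 probe, and without the variance trend in the fit its adjusted p was 0.0516.

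**Figure D3:**
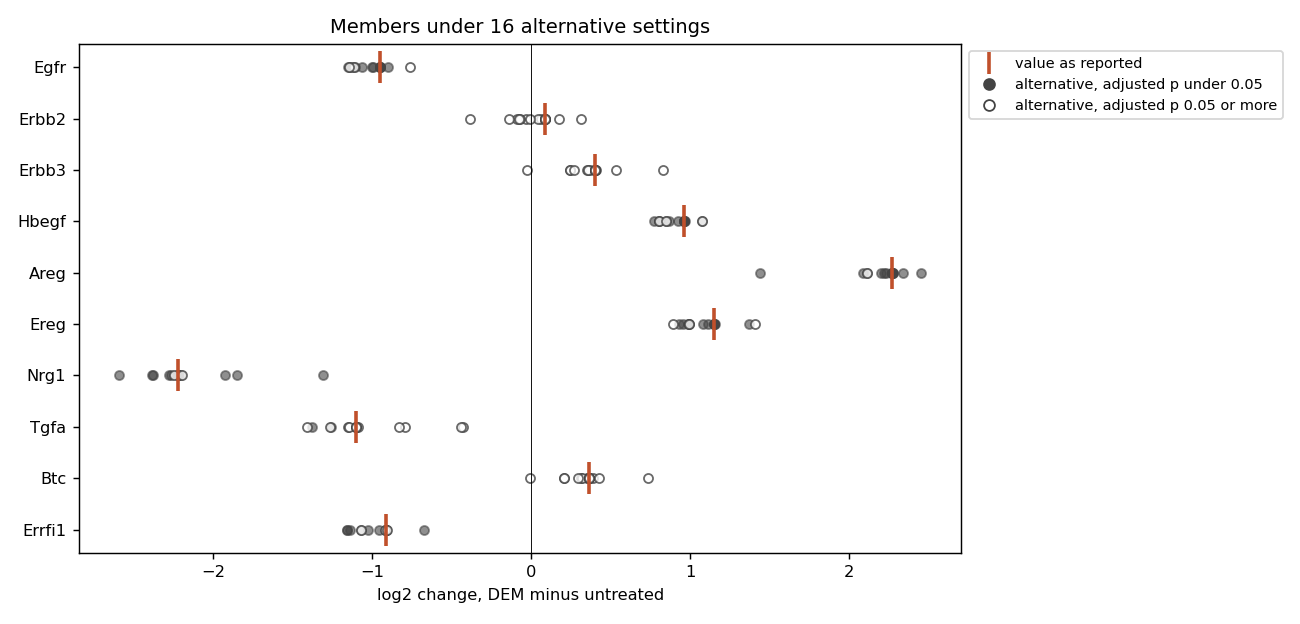
Log2 change, DEM minus untreated, of the 10 genes as reported (bar) and under 16 alternative settings (circles, filled where the adjusted p is under 0.05). Areg, Hbegf and Ereg stay above 0 and Egfr, Nrg1, Tgfa and Errfi1 below 0 under each setting, while Erbb2, Erbb3 and Btc have circles on either side of 0.

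Ereg, Areg and Btc are neighbours on chromosome 5: in the RefSeq table of GRCm38.p6 the protein-coding genes run Epgn, Ereg, Areg, Btc with no other between them. Of these, Ereg and Areg rose, Btc did not pass, and the probe of Epgn was not well above background. Promoter windows of 250 bases before the start were used for 6 of the 10 genes (Areg, Btc, Tgfa, Egfr, Erbb2 and Errfi1), in 7 windows. Ereg, Hbegf, Nrg1 and Erbb3 were not searched. The windows were searched on both strands for the cAMP response element (TGACGTCA), the antioxidant response element core (TGACNNNGC) and the AP-1 element (TGANTCA). Over all 32851 windows these letters occurred in 1.55%, 10.2% and 6.75%. Among the 7 windows, the cAMP response element occurred in that of Areg, 61 bases before the start, and in 1 of both Errfi1 windows, 51 bases before the start. The other motifs occurred in none of the 7, which says only that those letters are not in these windows. Areg rose and Errfi1 fell, and both windows are shown in the direction of transcription, with the matched letters in capitals (RefSeq, GRCm38.p6):
Areg, chr5:91139349-91139598, plus strand: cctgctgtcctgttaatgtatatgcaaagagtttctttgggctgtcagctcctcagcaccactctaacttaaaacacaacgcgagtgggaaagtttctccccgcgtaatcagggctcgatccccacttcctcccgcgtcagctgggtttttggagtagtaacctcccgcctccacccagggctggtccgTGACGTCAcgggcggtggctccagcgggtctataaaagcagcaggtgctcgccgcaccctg
Errfi1, chr4:150854820-150855069, plus strand: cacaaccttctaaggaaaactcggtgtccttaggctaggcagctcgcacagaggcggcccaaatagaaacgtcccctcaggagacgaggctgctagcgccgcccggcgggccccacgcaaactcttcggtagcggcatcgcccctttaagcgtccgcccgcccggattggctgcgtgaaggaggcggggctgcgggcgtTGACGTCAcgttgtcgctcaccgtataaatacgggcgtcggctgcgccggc

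The pathway around the family was read from 4 lists. Of their 82 genes, 71 were tested: 7 rose, 10 fell and 54 did not pass, where 15.5% of all genes rose and 11.8% fell. Their median change was -0.03, beside 0.16 for all genes. Without untreated replicate 1, 1 rose (Adam8) and 2 fell (Timp3 and Socs3), and without untreated replicate 2, 0 rose and 1 fell (Timp3). With spike-in scaling 0 rose and 2 fell (Timp3 and Dcn). The list of the remaining receptor and ligands held Erbb4, Egf, Epgn, Nrg2, Nrg3 and Nrg4. The probes of Epgn, Nrg3 and Nrg4 were not well above background on any array, and Nrg2 was not found under that name. Erbb4, the other neuregulin receptor, was measured only by a probe for a predicted transcript, with its other 3 probes not well above background. That probe gave 1.31 and 1.42 in DEM cells, against 1.22 and 1.40 in untreated cells (change 0.05 ± 0.18, adjusted p 0.849). Egf was at -3.82 and -3.54 in DEM cells, against -3.39 and -3.77 in untreated cells (change -0.10 ± 0.31, adjusted p 0.836). In both genes the groups overlapped.

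Of the 15 tested genes for release of the ligands, 4 rose, 4 fell and 7 did not pass (median -0.08), beside the same 15.5% and 11.8% of all genes. Adam17, the main protease that sheds Areg, Ereg, Hbegf and Tgfa, was at 2.80 and 2.79 in DEM cells, against 2.11 and 1.84 in untreated cells. It rose by 0.82 ± 0.18 (adjusted p 0.0237), though with cyclic loess scaling its adjusted p was 0.0555. Before scaling its groups overlapped, so the rise of Adam17 is one relative to the other probes of each array. The related surface proteases Adam8 (change 1.64 ± 0.22) and Adam9 (0.88 ± 0.16) rose too, with adjusted p-values of 0.00519 and 0.0134. So did Cnih4, a cargo receptor of the early secretory pathway (0.97 ± 0.19, adjusted p 0.0169), though the mean of its probes gave 0.51 (adjusted p 0.151). Before scaling the groups overlapped for Cnih4 as well, but not for Adam8 and Adam9. Timp3, which is not a protease but the tissue inhibitor of Adam17 and other metalloproteases, had the largest fall of the list. It was at 1.06 and 2.06 in DEM cells, against 5.79 and 5.89 in untreated cells, a 19.4-fold lower level (change -4.28 ± 0.33, adjusted p 0.00125). The proteases Adam19 (-1.73 ± 0.24, adjusted p 0.00582) and Adam15 (-0.80 ± 0.17, adjusted p 0.0193) fell as well. The intramembrane protease Rhbdl2 also fell (-1.64 ± 0.31, adjusted p 0.0149), and was well above background on 1 of the 2 DEM arrays. With normexp background correction Adam19 and Rhbdl2 fell by 1.01 and 0.52, which still passed. Adam10, which sheds Egf and Btc, did not pass (0.42 ± 0.25, adjusted p 0.259), and was named after its values were seen.

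Of 27 tested adaptors and signal relays, 1 rose, 3 fell and 23 did not pass (median -0.01). For this list and the next, the shares of all genes were again 15.5% rising and 11.8% falling. Eps8, an EGFR substrate that links the receptor to actin, rose by 0.84 ± 0.21 (adjusted p 0.0313). Pik3r3 and Pik3r2, regulatory subunits of PI3-kinase, fell by 1.20 ± 0.19 and 0.87 ± 0.18 (adjusted p 0.00883 and 0.0204). Vav3 fell by 1.08 ± 0.24 (adjusted p 0.0245). Of 27 tested genes that restrain or turn over the receptors, 2 rose, 3 fell and 22 did not pass (median -0.03). Hgs and Stam, which together sort ubiquitin-tagged receptors on endosomes, rose by 0.87 ± 0.21 and 0.79 ± 0.20 (adjusted p 0.0308 and 0.0337). With cyclic loess scaling Eps8, Hgs and Stam did not pass (adjusted p 0.0625, 0.0604 and 0.0749). With the mean of a gene's probes Eps8 was at 0.70 and Stam at 0.41, and neither passed (adjusted p 0.0564 and 0.331). Before scaling the groups overlapped for Eps8, Hgs and Stam, so these rises too are relative to the other probes of each array. Socs3, a feedback inhibitor of cytokine signalling, fell by 1.18 ± 0.21 (adjusted p 0.0119), and Spry2, a feedback inhibitor of receptor tyrosine kinases, by 0.85 ± 0.19 (adjusted p 0.0235). The mean of the Spry2 probes gave -0.61 (adjusted p 0.0532). Dcn, encoding decorin, a matrix proteoglycan that binds EGFR, fell by 3.11 ± 0.55 (adjusted p 0.0121), with 3.14 and 1.30 in DEM cells, against 5.33 and 5.32 in untreated cells. Dcn also stood on the fibroblast marker list.

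**Figure D4:**
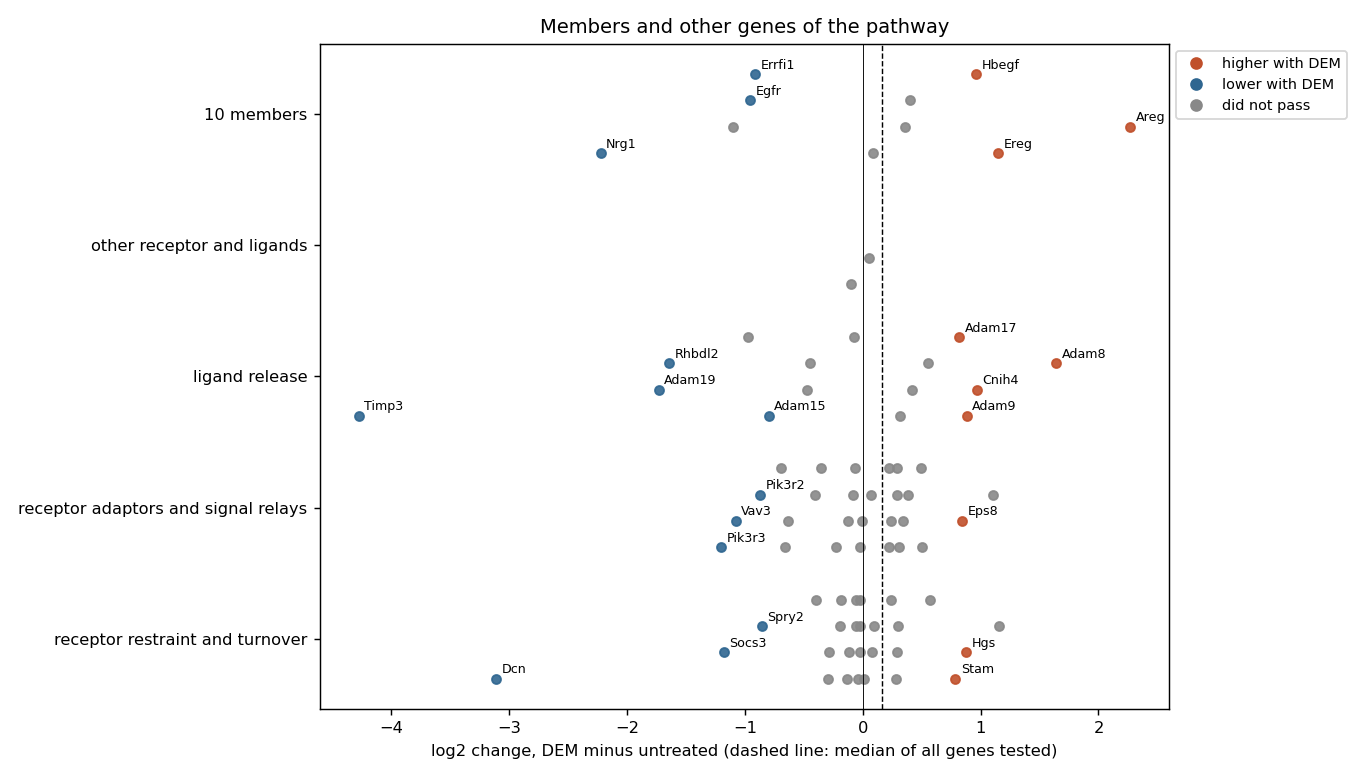
Log2 change, DEM minus untreated, of the 10 family genes and of the tested genes of the 4 lists, 1 point per gene. Genes past the threshold are coloured and named, and the height of a point within its list carries no value. Timp3 at -4.28 and Dcn at -3.11 lie farthest to the left, and Areg at 2.27 farthest to the right.

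The labelled cell type was checked against its markers. Of 15 fibroblast markers, 13 stood well above background on each of the 4 arrays. With DEM 7 fell and none rose, where 11.8% of all genes fell. Divided by each array's 75th percentile, the summed fibroblast signal was 932 and 1310 in DEM cells, against 1650 and 1710 in untreated cells. Areg and Ereg are also made by epithelial cells, and Nrg1 by Schwann and neural cells. Of 15 epithelial markers, 10 were not well above background on any array, Cdh1 among them. Their sum on the same scale was 0.511 and 0.456 in DEM cells, against 0.411 and 0.429 in untreated cells. Before scaling it was 230.1 and 187.9 in DEM cells, against 288.3 and 320.8 in untreated cells, so the order of the groups depends on the scaling. For 8 Schwann and neural markers, 3 of them not well above background on any array, the scaled sum was 0.907 and 1.09 in DEM cells, against 0.961 and 0.834 in untreated cells. Before scaling it was 407.9 and 448 in DEM cells, against 674 and 622.8 in untreated cells, so the groups overlapped only after scaling. Macrophage markers, with 4 of 8 not well above background on any array, summed to 0.616 and 0.511 in DEM cells, against 0.681 and 0.682 in untreated cells. Endothelial markers, with 4 of 6 at that level, summed to 0.172 and 0.0739 in DEM cells, against 0.115 and 0.119 in untreated cells. Before scaling the macrophage sum was 277.3 and 210.9 in DEM cells, against 477.7 and 509.6 in untreated cells. The unscaled endothelial sum was 77.3 and 30.48 in DEM cells, against 80.86 and 89.05 in untreated cells. Only 4 epithelial markers and 4 Schwann and neural markers were tested, and none of them passed. The other 11 and 4 were too dim to be tested. The macrophage marker Lyz2 fell by 1.85 (adjusted p 0.0141). The endothelial marker Tek was not well above background on either DEM array. Its fitted change of -2.27 passed (adjusted p 0.0114) but rests on those dim values. With them raised to the lowest level marked well above background, Tek was 1.23-fold lower, a lower bound that was not tested. In RNA from whole cultures, fewer cells of a type and less RNA per cell cannot be told apart, and the part of cell makeup in the changes above was not tested.

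Genes whose pattern over the 4 arrays was nearest to Areg and to Nrg1 were found among the 11206 tested genes outside NONCODE that have a plain symbol, not a clone or locus name, and were well above background on all arrays, each centred on its untreated mean. By root mean square difference, in log2 units, the nearest to Areg were Prr13 (0.056), Lgals3 (0.080), Slpi (0.080), Ifrd2 (0.088) and Nol8 (0.10). The nearest to Nrg1 were Vegfc (0.097), Lbp (0.099), Ogn (0.13), Zfp395 (0.14) and Tnc (0.14). Over 4 arrays this measure mainly finds genes with a change of like size. The changes of these genes were 2.171 to 2.251 for Areg's list and -2.389 to -2.085 for Nrg1's. Some genes out of 11206 will always lie near, and shared control with Areg or Nrg1 was not tested.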

How the data were processed

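The deposited scanner files hold Cy3 intensity values per spot; per the file headers the software was Agilent Feature Extraction, version 10.7.3.1, run with protocol GE1_107_Sep09, with spatial and multiplicative detrending and a well-above-background multiplier of 13. The log2 values of the authors' deposited table matched log2 processed signal minus each array's 75th percentile within 0.01 for at least 99.98% of probes, with column medians of -4.30 and -4.36 (DEM) and -4.39 and -4.35 (untreated), and served as an alternative. Per the labels, 500 ng of RNA was used per sample.

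Of the 62976 spots per array, 1319 were controls. Control spots and 130 probes with an outlier mark were left out, and no spot was saturated. Log2 processed signal minus the array's 75th percentile was averaged over spots of a probe, giving 61307 probes, 20679 of them for NONCODE transcripts. Of the 40628 other probes, 28136 were named by accession, 4982 by symbol and 1406 by synonym through the RefSeq table of GRCm38.p6, and 6104 kept the files' name. A probe was tested if 2 or more of the 4 arrays marked it well above background (31771 probes), and each gene was represented by its brightest such probe (24658 genes, NONCODE transcripts counted as genes). DEM was compared with untreated using limma 3.58.1 in R 4.3.3 (lmFit, eBayes with a variance trend; 2 residual degrees of freedom), as a two-sided test whose p-values were adjusted by Benjamini-Hochberg across all genes. The fit was tested on simulated data whose spread was drawn as the fit assumes. The planted changes were larger than those of most family genes, so that test did not cover changes of their size. The number of arrays limits the precision.

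All 10 family genes were named, as were all genes of the list of remaining receptor and ligands, and in each other list up to 4 genes past the threshold in each direction with the smallest p. Likeness was taken for the risen and the fallen family gene with the smallest p. Members and lists were chosen with earlier results of these data known, so no list was tested. Probe sequences are from the scanner files, and promoters from RefSeq. The Hbegf probe is not printed. The alternatives were 6 other scalings or background corrections, the authors' values, 2 filters, the mean of a gene's probes, no variance trend, a replicate block and leaving out each array.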

Additional observations from a re-analysis of the deposited data

How the results depend on the processing

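None of the 6 family genes that passed changed direction under any of the 16 alternatives, and Areg passed in 15, Nrg1 in 14, Egfr, Hbegf and Ereg in 13 each and Errfi1 in 12. Several of these alternatives could not have turned a sign. The 2 filters, the fit without variance trend and the replicate block left the size of these changes as it was. The authors' values were almost the same as those used here. Scaling to the array median, the detected-probe percentile or the spike-in RNA shifted all genes alike, by less than these changes. The mean of a gene's probes left Areg, Hbegf and Errfi1, with 1 probe each, as they were. Leaving out 1 array cannot turn the sign of a gene whose groups do not overlap, which held for all 6. With 2 arrays a group, and 1 where an array was left out (the lone array was then assumed to vary like the other group), calls depended on single arrays. Leaving out 1 array gave 1 to 3 family genes higher and 0 to 4 lower, 0 to 8 pathway genes higher and 1 to 13 lower, and 644 to 4488 of all genes higher and 802 to 3814 lower. The adjusted p of Egfr was 0.132 without untreated replicate 1 and 0.0640 without untreated replicate 2. For Hbegf these were 0.115 and 0.0769, for Ereg 0.0536 and 0.137, for Nrg1 0.0540 and 0.0607, and for Errfi1 0.126 and 0.135. Scaling to spike-in RNA left 0 family genes higher and 1 lower, 0 pathway genes higher and 2 lower, and 363 of all genes higher and 889 lower, with an adjusted p of 0.0990 for Areg. The all-gene median change was 0.16 as reported, 0.00 with spike-in scaling and 0.23 with normexp. Of all genes called, 56.8% were higher as reported, 46.5% with quantile scaling, 40.8% with cyclic loess, 42% with the 75th percentile over detected probes, 29% with spike-in scaling, 70.3% with normexp and 84.7% without the filter on dim probes. All genes higher came to 2529 with cyclic loess, 17297 without the filter and 6528 with normexp. Pathway genes higher came to 4 with the detected-probe percentile, 3 with cyclic loess, 13 without the filter and 4 without the variance trend. The signs of 5 genes that did not pass turned. Erbb2 was at -0.034 (quantile), -0.088 (cyclic loess), -0.073 (detected-probe percentile), -0.074 (spike-in) and -0.39 (mean of probes). Erbb4 was at -0.0069 (normexp), -0.022 (quantile), -0.10 (cyclic loess), -0.10 (detected-probe percentile) and -0.11 (spike-in), and Egf at 0.25 (normexp). Leaving out 1 array gave -0.14 to 0.31 for Erbb2, -0.026 to 0.83 for Erbb3, -0.0068 to 0.73 for Btc, -0.039 to 0.15 for Erbb4 and -0.29 to 0.091 for Egf. The cause was not tested for any of these. With the replicate number as a block, 3 family genes were higher and 4 lower, Tgfa passing at an adjusted p of 0.0243. Same-numbered arrays deviated together at a correlation of 0.08 over all genes. With 2 arrays a group this cannot show whether the numbers pair the samples, and the labels do not say.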
